A study of Mus musculus with 5 samples.

Results

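The 153 cells described here are GABAergic neurons of the E11.5 mouse cortical dissection, which are neurons that use the inhibitory transmitter GABA. They were chosen from the 2000 cells of the E11.5 table by 4 conditions on their own values. A cell had to be absent from the authors' table of cortical cells and hold at least 500 unique molecular identifiers (UMIs, each counting 1 captured RNA molecule). It also had to hold at least 3 UMIs summed over Gad1, Gad2, Slc32a1, Dlx5 and Dlx6os1, and at most 1 UMI summed over the cell-cycle genes Mki67, Top2a, Cenpf, Ccnb1 and Ube2c. Of 1994 cells with at least 500 UMIs, the members were 7.67% (exact Clopper-Pearson 95% interval 6.54 to 8.93). They were 26.4% (22.8 to 30.2) of the 580 such cells that the authors did not place in the cortical table. Because measured values chose the members, their marker levels and all differences from other cells are a description and carry no test.

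The study profiled cells of dissected cortex from wild-type CD1 mouse embryos by Drop-seq, a droplet method that tags the RNA of each cell with a barcode. Embryos were taken from E11.5 through E13.5 and E15.5 up to E17.5, and 11000 cells were deposited in all. All ages except E11.5 were sorted for viable cells by flow cytometry. The labels name 5 libraries, of which 2 are E15.5 batches, but their barcodes carry no batch name and stand together in 1 table. Each age was therefore read as 1 library, and differences between ages cannot be told apart from differences between libraries. The number of embryos behind a library is not given in the sources used here. No barcode was shared between E11.5 and another age. At E11.5 the table held 5502525 UMIs over 16816 genes. Members held 762 to 5890 UMIs each (median 1920), with a median of 1280 genes, and 326958 UMIs in all. The other 1841 kept cells had a median of 2102 UMIs and held 5172703.

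Many GABAergic neurons of the forebrain are born in the ganglionic eminences, swellings of the ventral telencephalon below the cortex. There the homeodomain factors of the Dlx family switch on genes of GABA production, and the young neurons then settle in the striatum, septum and olfactory bulb or migrate into the cortex as interneurons. Gad1 and Gad2 encode the enzymes that make GABA from glutamate, and Slc32a1 encodes the transporter that loads it into synaptic vesicles. Dlx5 encodes a Dlx factor, and Dlx6os1 is a long noncoding RNA of the same locus.

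Dlx6os1 supplied 346 of the 1007 marker UMIs, more than any other marker. It lies on the minus strand of chromosome 6 (chr6:6820189-6871592, GRCm38, GENCODE M21), and its body overlaps Dlx6 on the opposite strand (chr6:6863334-6868568) next to Dlx5 (chr6:6877805-6882085). Whether counting used the strand is not given in the sources used here, so UMIs of Dlx6os1 and Dlx6 cannot be told apart with certainty. The promoters of the 2 Dlx6os1 start sites are shown because they are the promoters of rule markers that hold TAATTA, a core sequence that homeodomain proteins such as Dlx factors can bind. Both are RefSeq sequences of GRCm38.p6 on the minus strand, from 250 bases before to 50 after the start, with TAATTA in capitals.
Dlx6os1 start 1, chr6:6861634-6861933: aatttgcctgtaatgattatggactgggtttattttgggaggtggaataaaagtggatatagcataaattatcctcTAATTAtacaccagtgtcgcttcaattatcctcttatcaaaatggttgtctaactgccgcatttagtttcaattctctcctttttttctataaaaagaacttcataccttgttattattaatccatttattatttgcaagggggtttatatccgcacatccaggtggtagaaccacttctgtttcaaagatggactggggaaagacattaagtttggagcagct
Dlx6os1 start 2, chr6:6869484-6869783: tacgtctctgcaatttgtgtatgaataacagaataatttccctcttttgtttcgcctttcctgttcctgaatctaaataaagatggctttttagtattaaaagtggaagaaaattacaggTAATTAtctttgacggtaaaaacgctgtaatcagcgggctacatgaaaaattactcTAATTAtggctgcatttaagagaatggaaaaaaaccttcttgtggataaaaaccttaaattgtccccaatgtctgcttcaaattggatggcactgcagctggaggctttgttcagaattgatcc
The first sequence holds 1 TAATTA, 174 bases before the start, and the second holds 2, with the first at 130 bases before the start. TAATTA is its own reverse complement, so each match counts for both strands. Of 32851 RefSeq promoters of 300 bases, 1738 (5.29%) held it. It was in 2 of the 5 promoters found for the rule markers, in 1 of 16 promoters of the 20 genes highest in members (Tac1, 100 bases before the start) and in 6 of 20 promoters of pan-neuronal genes. RefSeq promoters for Dlx5 and Dlx6 were not used here. A match describes the letters only, and binding was not measured.

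Cells with 3 or more marker UMIs were rare inside the cortical table, while sums of 0 to 2 were found in both tables. Among cells with at most 1 cell-cycle UMI, those outside the cortical table held 0 marker UMIs in 103 cells, 1 in 19, 2 in 12, 3 in 27, 4 in 24 and 5 in 17, and 7 or more in 68. Inside it 484 such cells held 0, 21 held 1 and 2 held 2. Only 2 of the 1414 kept cells of the cortical table met the other 3 conditions. The 27 cells just inside the limit, with a sum of 3, had a median of 1581 UMIs and 1333 CPM (counts per 1000000 UMIs) of Dlx1 and Dlx2 together. The 12 cells just outside it, with a sum of 2, were shallower, with a median of 1088 UMIs, and held 617 CPM. The level of Dlx1 and Dlx2 did not rise evenly with the marker sum outside the cortical table. It was 203 CPM at a sum of 0, 1143 at 1, 1208 at 4 and 844 at 5. Of the members, 104 held no cell-cycle UMI and 49 held 1, while 20 cells with enough markers were left out for holding 2.

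**Figure D1:**
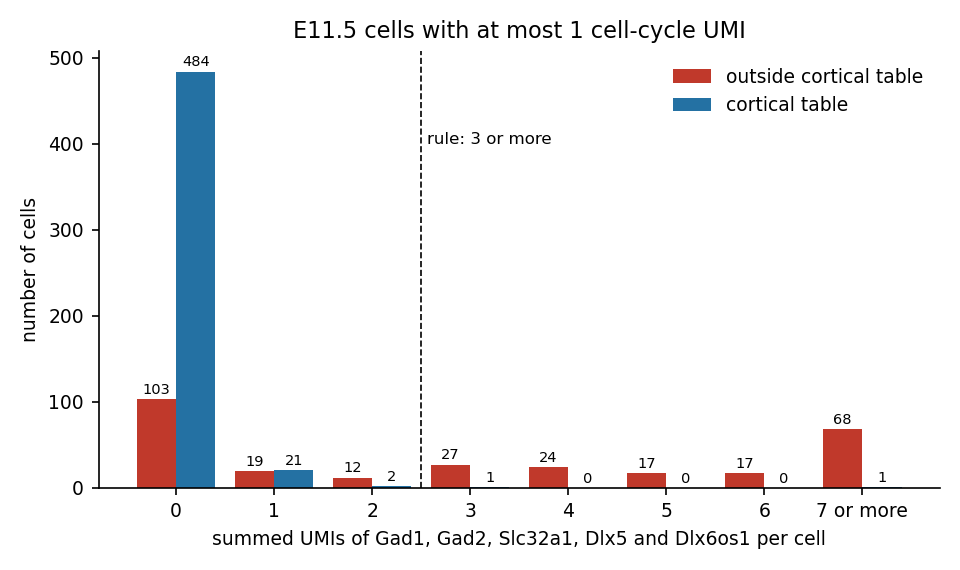
Number of E11.5 cells (vertical axis) by their summed UMIs of the 5 rule markers (horizontal axis, 7 or more in the last bar), among cells with at most 1 cell-cycle UMI, for cells outside and inside the authors' cortical table. Cells with 3 or more marker UMIs lie almost wholly outside the cortical table, with 2 cells inside it.

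The members held a median marker sum of 6 UMIs, with quartiles of 4 and 8 and a range of 3 to 21. The markers overlapped within cells: 144 of the 153 held at least 2 of the 5 and 10 held all 5, while 9 met the rule through 1 marker. GABA enzyme or transporter RNA was present in 142 cells, and 11 qualified through Dlx5 and Dlx6os1 alone. Gad2 (chr2:22622205-22693874, plus strand) was detected in 130 cells (85.0%), at up to 11 UMIs in a cell. Dlx6os1 was detected in 120 (78.4%), Dlx5 in 103, Slc32a1 (chr2:158610767-158615748, plus strand) in 56 and Gad1 (chr2:70553072-70602014, plus strand) in 46. In summed UMIs, Gad2 stood at 1018 CPM in members against 60.9 CPM in all other cells, and Gad1 at 180.5 against 12.4. Those other cells include 111 cycling cells that also carry the markers, which held 234 of the 315 Gad2 UMIs outside the members. In droplet data free RNA can also give UMIs to cells that do not express a gene. Excitatory cortical neurons, which should lack Gad2, carried a Gad2 UMI in 5 of 146 cells (3.42%, 1.12 to 7.81) at a median of 2257 UMIs. With each cell thinned to 1000 UMIs, which left out 14 members and 5 excitatory cells, Gad2 was detected in 61.2% of members and 2.84% of excitatory cells.

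Neuronal genes outside the rule were high in the members, but RNA of precursor and S phase genes was also present. Tubb3 (neuronal tubulin) stood at 4740.7 CPM in members and 1577 CPM in all other cells, and Stmn2 (stathmin 2, a regulator of microtubules in growing axons) at 2903 and 756. Each of the 12 pan-neuronal genes was at least 2-fold higher in members, and each member held at least 1 UMI of the list. All 16 S phase genes were at least 2-fold lower, which the cell-cycle limit of the rule favours. They still stood at 899 CPM over all members, with UMIs in 107 of them. Radial precursor markers stood at 1505 CPM in members, 1376 CPM in excitatory neurons and 3867 CPM in all other cells. They gave UMIs in 133 members and 126 excitatory neurons. Pax6, which is also in the list of lateral eminence genes described below, gave 133 of their 492 UMIs in members. Intermediate progenitor markers stood at 385 CPM over all members, with UMIs in 52 of them. Whether each member had left the cell cycle was not tested. Markers of microglia, endothelial cells and pericytes were at 0 UMIs in the members (95% upper limit 11.3 CPM for each list), and mesenchymal markers at 2 UMIs, both of Pdgfra. Erythroid markers, mostly hemoglobin, gave 157 UMIs in 95 cells. Hemoglobin made up 0.0480% of the members' UMIs, 0.0542% of those of excitatory neurons and 3.19% of those of all other cells, which include red blood cells.

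Levels below are summed UMIs scaled to CPM with exact Poisson 95% intervals, and ratios carry exact conditional binomial 95% intervals. They cover counting error only. UMIs are pooled over cells, so the spread between cells is left out, and 1 library gives no spread between animals. Each level covers all cells of its group, and a number of cells given with it counts those with at least 1 UMI. A gene was counted as higher or lower when its ratio was at least 2 or at most 0.5 and its interval excluded 1. Against all other E11.5 cells, 704 of 9211 genes (7.64%) were higher and 1001 (10.9%) were lower. With median-of-ratios scaling, every ratio shifted by -0.20 on the log2 scale, and the split was 485 higher and 1340 lower. Ratios to all other cells compare neurons with a mixture that includes dividing precursors, so neurons of the same library are the closer reference. The first of these are 146 excitatory neurons, which are cortical-table cells with at least 3 UMIs summed over Neurod2, Neurod6, Tbr1, Slc17a6 and Bhlhe22. The second are 34 other neurons from outside the cortical table, with at least 5 UMIs of Stmn2, Stmn3, Mapt, Gap43 and Ina and no rule marker. Both reference groups had at most 1 cell-cycle UMI. The same call found 201 genes higher (3.4%) and 272 lower (4.61%) of 5904 against excitatory neurons, and 169 (4.02%) and 186 (4.42%) of 4208 against the other non-cortical neurons.

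Other genes of the ventral forebrain programme accompanied the rule markers. Of 9 listed partners tested against all other cells, 7 were higher and 1 was lower, with a median log2 ratio of 2.41 beside -0.03 for all genes tested. Against excitatory neurons 8 of 8 tested were higher (median 5.33, all genes 0.01), and against the other non-cortical neurons 6 of 7 were (median 3.39, all genes 0.11). Genes with 0 UMIs in a group entered these medians at a floor of 3 UMIs. Dlx1 and Dlx2, which lie tail to tail on chromosome 2 (chr2:71528113-71533981 and chr2:71543408-71546754), are the earlier-acting Dlx genes. Dlx1 stood at 707 CPM (interval 618 to 804) in members, 16.5 in excitatory neurons and 29.2 in the other non-cortical neurons, and Dlx2 at 639, 11.01 and 0 CPM. The zinc-finger factor Sp9 stood at 199 CPM and was at 0 UMIs in both reference groups. With each 0 floored at 3 UMIs, its ratio was 24.1 to excitatory neurons and 4.54 to the other non-cortical neurons. Such floored ratios are not lower limits. Dlx6 stood at 153 CPM, the homeobox gene Six3 at 153 and the zinc-finger gene Sp8 at 104. Gsx2, which patterns lateral precursors, stood at 24.5 CPM (10.6 to 48.2) in members and 33.6 in all other cells, which lies within the interval.

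**Figure D2:**
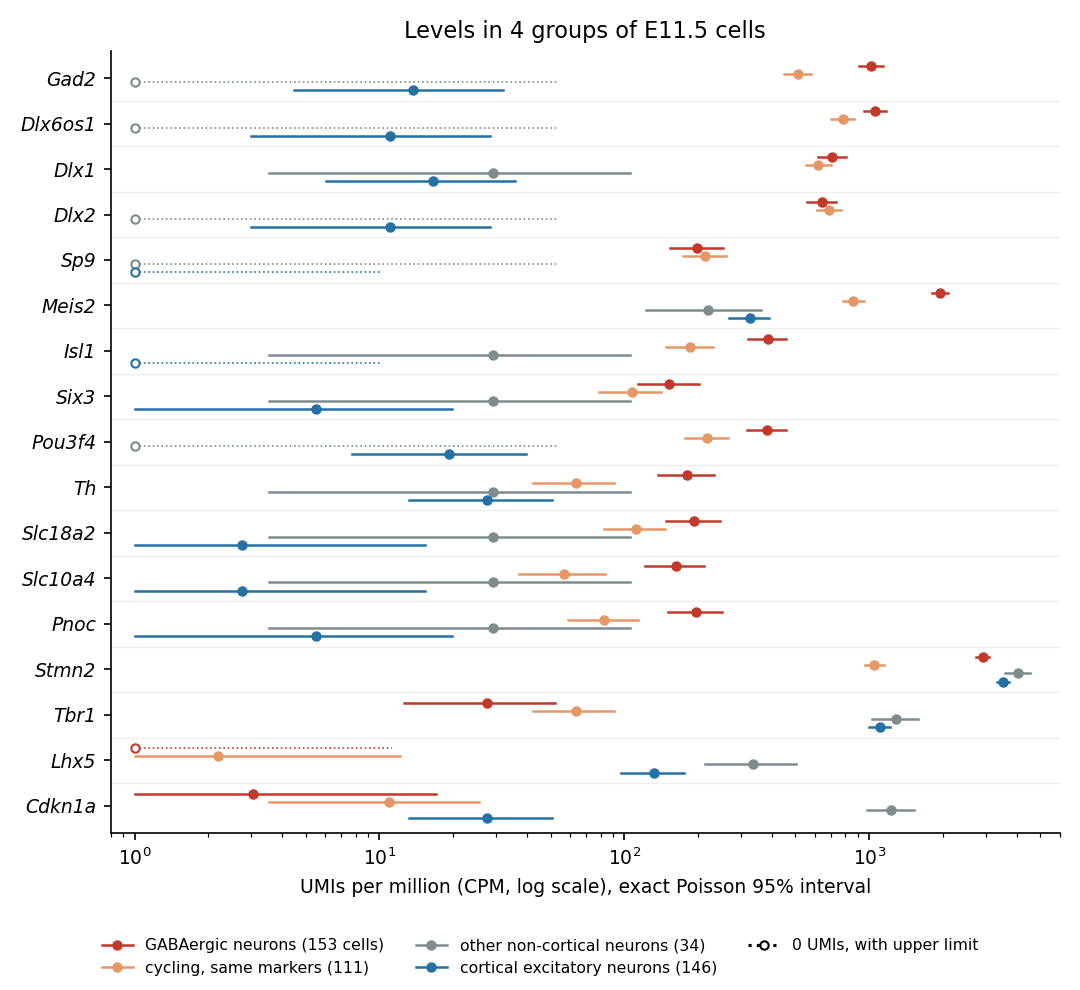
Levels in CPM (logarithmic axis) of named genes in the members and in the comparison groups at E11.5. Points are summed UMIs scaled to CPM and bars are exact Poisson 95% counting intervals, cut at 1 CPM, with open points and dotted upper limits for 0 UMIs. Dlx1, Dlx2 and Sp9 in members stand far above the excitatory and the other non-cortical neurons and near the cycling cells that carry the rule markers.

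Genes of GABA handling beyond the markers were fewer. Abat, which breaks GABA down, stood at 88.7 CPM in members, 16.0 in all other cells (ratio 5.53, interval 3.49 to 8.53) and 11.01 in excitatory neurons. Over the list of GABA metabolism and transport 3 of 8 genes tested were higher than in all other cells and 1 was lower, and against excitatory neurons 2 of 6 were higher. Both chloride transporters that set the direction of GABA currents were near the limit of detection: Slc12a5 (KCC2) gave 2 UMIs and Slc12a2 (NKCC1) 5. Among receptor subunits, Gabbr1 of the GABA-B receptor stood at 94.8 CPM in members and 88.1 in excitatory neurons. Gabra4 and Gabra5 of the GABA-A receptor were at 0 UMIs in members. Of 3 receptor subunits tested against excitatory neurons, 0 were higher and 1 was lower.

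Genes of the lateral ganglionic eminence and striatum led the positional lists. Of 13 tested, 9 were higher than in all other cells and 1 lower (median log2 ratio 1.52, all genes -0.03). Against excitatory neurons 6 were higher and 3 lower, and 6 of 10 were higher than in the other non-cortical neurons. Meis2, a homeobox gene of lateral eminence derivatives, gave the most UMIs of the list, 637 in 134 of the 153 cells. It stood at 1948 CPM in members, 325 in excitatory neurons (ratio 5.9996, interval 4.92 to 7.37), 219 in the other non-cortical neurons and 361 in all other cells. Isl1 (chr13:116298281-116309689, minus strand), a LIM homeobox factor needed for striatonigral projection neurons, stood at 385 CPM with 126 UMIs in 65 cells. Excitatory neurons held no Isl1 UMI in 146 cells, and the other non-cortical neurons held 2. With the 0 floored at 3 UMIs, the ratio of members to excitatory neurons was 46.7, which is not a lower limit. Zfhx3, a zinc-finger homeobox gene, stood at 144 CPM against 16.5 in excitatory neurons, and Pax6, which is kept in some lateral eminence lineages, at 407 against 99.1. Several striatal genes ran the other way or did not differ: Foxp1 stood at 18.4 CPM against 102 in excitatory neurons, Foxp2 at 125 against 228 and Ebf1 at 82.6 against 162. Penk, Gucy1a3, Rarb and Ikzf1, genes of more mature striatal neurons, were at 0 UMIs.

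Markers of the medial ganglionic eminence, the source of parvalbumin and somatostatin interneurons, were scarce. Nkx2-1, Lhx6 and Gbx1 were not listed at E11.5, in a table that lists genes with at least 1 UMI. Lhx8 gave 3 UMIs in 2 members, and Maf 2 UMIs. Of 4 genes of that list tested against all other cells, 0 were higher and 0 lower. The somatostatin gene Sst gave 22 UMIs, all in 1 cell, and no other kept E11.5 cell held any. The caudal eminence list was mixed, with Sp8 (ratio 3.15) and Prox1 (5.54) higher than in all other cells and Nr2f1 (12.2 against 95.5 CPM) and Calb2 (0 against 65.9) lower. Nr2f2 and Htr3a were at 0 UMIs.

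Because the dissection can include tissue next to the cortex, the members were also read for genes of diencephalic and midbrain GABAergic neurons. Of 8 such genes tested, 0 were higher and 3 lower than in all other cells (median log2 ratio -0.77). Lhx1 gave 1 UMI and Lhx5 0, against 847 and 336 CPM in the 34 other non-cortical neurons. Both genes are also listed markers of Cajal-Retzius cells, early neurons of the cortical surface, and 30 of those 34 cells held markers of that list. Gata2, Tal2 and Tfap2b were at 0 UMIs in members, and Gata3, Sox14, Otp and Pax2 were not listed at E11.5. Zic1, which marks the septum and medial regions among others, stood at 180.5 CPM in members and 114 in all other cells.

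The genes with the largest ratios to all other cells, outside the rule genes, included transporters and transmitter genes not tied to GABA. Slc10a4 (chr5:73006883-73012955, plus strand), a vesicular protein of monoaminergic and cholinergic neurons, stood at 162 CPM against 7.15 (ratio 22.7, interval 14.6 to 35.5) and was found in 32 members. Slc18a2, the vesicular monoamine transporter, stood at 193 against 18.2 CPM (ratio 10.6) in 42 members. Th (minus strand of chromosome 7), tyrosine hydroxylase of catecholamine synthesis, stood at 180.5 against 14.7 CPM (ratio 12.3, interval 8.59 to 17.49) with 59 UMIs in 37 members. In excitatory neurons the same 3 genes stood at 2.75, 2.75 and 27.5 CPM. Ddc, the enzyme after tyrosine hydroxylase, gave 5 UMIs in members, none of them in a cell with Th. RNA for a monoamine transporter and for Th was thus present in a minority of the members. With Ddc at 5 UMIs in all, its 0 UMIs in cells with Th cannot show whether those cells lack it. The counting interval of Ddc in the 37 members with Th reached 41.1 CPM, above its 21.1 CPM in members without Th.

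Peptide and signalling genes differed in how many cells carried them. Pnoc, the precursor of nociceptin, stood at 196 CPM in members, 14.5 in all other cells and 5.50 in excitatory neurons, with 64 UMIs in 37 cells. Tac1, the precursor of substance P, gave 33 UMIs in 6 cells, with up to 9 in a cell, so its 101 CPM came from few cells. Calb1, a calcium buffer, gave 29 UMIs in 15 cells. Tiam2, an activator of the GTPase Rac, stood at 141 CPM against 7.73 (ratio 18.2) in 30 cells, and was at 0 UMIs in excitatory neurons. Nefm, the medium neurofilament chain, stood at 575 CPM in 66 cells against 217 in excitatory neurons. The POU factors Pou3f1 (254 against 22.6 CPM in all other cells) and Pou3f4 (382 against 52.8) were found in 45 and 65 members. Nrxn3, Nrg1, Arl4d, Tmem130, Spats2l and the antisense RNA Dlx1os were also among the 20 highest, at ratios of 8.14 to 12.9. As for Dlx6os1, UMIs of Dlx1os cannot be told apart with certainty from those of its antisense partner Dlx1. Npy gave 1 UMI, Penk, Nos1 and Cartpt gave 0, and Vip, Pvalb, Crh and Pdyn were not listed at E11.5. Among the 10 genes with the lowest ratios, 8 act in mitosis (such as Kif23, 3.06 against 162 CPM, and Tpx2, 21.4 against 373), which the cell-cycle limit favours. The other 2 were the cortical precursor factors Nr2e1 and Eomes.

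In the comparison with excitatory neurons the transmitter genes Gad1, Gad2, Slc32a1 and Slc17a6 helped to choose the 2 groups, so their differences were fixed by the rules. The glutamate transporter gene Slc17a6 gave 2 UMIs in members (6.12 CPM) and 402 CPM in excitatory neurons, and Neurod6 was at 0 UMIs against 330.2 CPM, both being genes by which the excitatory cells were chosen. Neurod1, a proneural factor of the excitatory lineage that took no part in that choice, stood at 12.2 against 564 CPM. Calb2 was at 0 against 501 CPM, and Nhlh1, Ebf2 and Rasgrp1 were also at 0 UMIs in members. Markers of Cajal-Retzius cells, early neurons of the cortical surface, stood at 919 CPM in the excitatory cells, with UMIs in 84 of the 146. In members these markers stood at 12.2 CPM (4 UMIs in 3 cells). Their part in differences such as Calb2 and Ebf2 was not tested. Of 12 pan-neuronal genes 0 were higher and 1 was lower in members (median log2 ratio -0.36). Of 17 synaptic and axonal genes 1 was higher, Nefm, and 3 were lower, among them Ina (694 against 1580 CPM) and Syt4 (12.2 against 66.0). Bcl11b, a factor of deep-layer cortical and striatal neurons, was the exception in the excitatory list, with 205 CPM in members, 418 in excitatory neurons and 91.1 in all other cells.

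**Figure D3:**
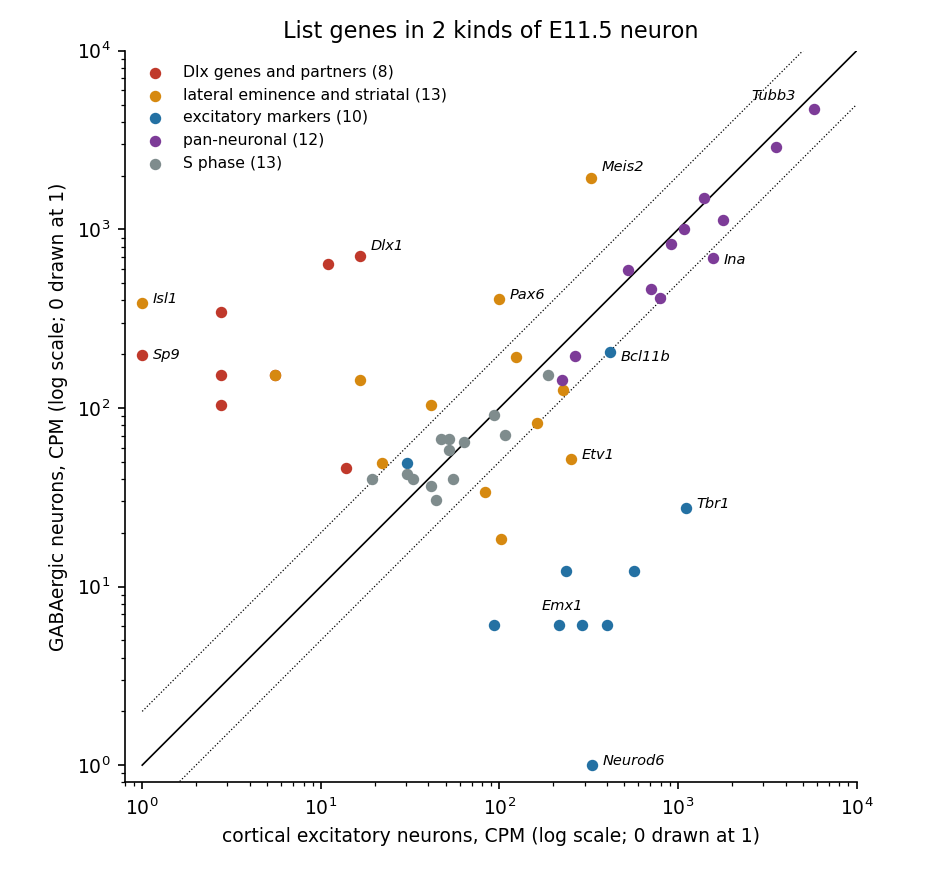
Levels in CPM (logarithmic axes, 0 drawn at 1) of the tested genes of 5 lists in the members (vertical) against the cortical excitatory neurons (horizontal) at E11.5, coloured by list, with the diagonal at equal levels and dotted lines at 2-fold. Isl1, Sp9 and Dlx1 lie far above the diagonal, Tbr1 and Neurod6 far below it, and the pan-neuronal genes close to it.

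Of 15 migration and guidance genes tested against excitatory neurons, 4 were higher in members and 3 lower (median log2 ratio 0.26, all genes 0.01). The list summed to 1857 CPM in members and 2061 in excitatory neurons. Plxna2, a semaphorin co-receptor, stood at 205 CPM in members and 55.0 in excitatory neurons (ratio 3.72, interval 2.23 to 6.48), Epha4 at 144 and 38.5, and Robo1 at 70.3 and 33.0, and Nrxn3 was the other gene that was higher. The 3 lower were Robo2 (94.8 and 253 CPM), Cntn2 (52.0 and 165) and Pcdh9 (24.5 and 124). The chemokine receptor Cxcr4, which later steers migrating interneurons, was at 0 UMIs, and its partner Ackr3 gave 1. Erbb4, the neuregulin receptor of migrating interneurons, gave 6 UMIs. In the imprinted list, Dlk1 (208 against 46.8 CPM) and Peg10 (116 against 11.01) were higher than in excitatory neurons, while Nnat stood at 7184 CPM in members and 6850 in excitatory neurons.

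Against the 34 other non-cortical neurons, which held 68492 UMIs, the highest ratios included Dlx2, Dlx1, Sp9, Isl1 and Meis2. Joining them was Pou3f4, at 382 against 0 CPM (ratio 8.73 with the 0 floored at 3 UMIs). Others were Rnd3, a small GTP-binding protein (685 against 43.8 CPM), Mpped2 (795 against 102) and Dlk1 (208 against 0). Lower in members were the cell-cycle inhibitor Cdkn1a (3.06 against 1226 CPM), the LIM factors Lhx1 (3.06 against 847) and Lhx5 (0 against 336), Nhlh2 and Tbr1 (27.5 against 1285). Those 34 cells held Cajal-Retzius markers at 2643 CPM, with UMIs in 30 of them. The contrast is thus between Dlx neurons and a group rich in such markers, and the part of those markers in it was not tested.

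A further 111 cells outside the cortical table had at least 3 marker UMIs and 2 or more cell-cycle UMIs. They were 42.0% (36.0 to 48.3) of all marker-positive cells, and they were deeper, with a median of 3075 UMIs against 1920, which bears on any limit set in UMIs. Of 6346 genes, 319 (5.03%) were higher in members than in these cycling cells and 474 (7.47%) were lower. Dlx1 (707 and 620 CPM), Dlx2 (639 and 684) and Sp9 (199 and 214) stood at similar levels in both. Gsx2 (24.5 against 69.9 CPM) was lower in members. Higher were Ebf1 (82.6 against 8.74 CPM), Meis2 (1948 against 863), Isl1 (385 against 186), the adhesion gene Islr2 (483 against 144) and Stmn2 (2903 against 1051). Tac1 gave 33 against 2 UMIs, and the retinaldehyde dehydrogenase Aldh1a3 20 against 2. All 16 S phase genes were lower in members. None of them was in the rule, but the cell-cycle limit that parts these groups favours this difference.

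Members varied among themselves in Isl1. The 65 cells with an Isl1 UMI had a median of 2411 UMIs and the 88 without 1739.5, so the split follows depth in part, and with cells thinned to 1000 UMIs the share with Isl1 went from 42.5% to 25.9%. Leaving Isl1 out, 68 of 3620 genes (1.88%) were higher and 84 (2.32%) lower in the cells with Isl1. The genes named in this split and in the split by Th were chosen after their values were seen. Ebf1, a striatal factor that acts with Isl1 in striatonigral neurons, stood at 154.7 CPM with Isl1 and 12.1 without, with 25 of its 27 UMIs in 9 Isl1 cells. Pnoc stood at 278 and 114.9 CPM, the neurofilament gene Ina at 978 and 417, the axonal protein gene Mapt at 334 and 60.5, Dlk1 at 347 and 72.6 and Rgs2, a regulator of G-protein signalling, at 458 and 114.9. Tac1 stood at 179 and 24.2 CPM, from 5 cells and 1 cell. The cells without Isl1 held more Pou3f4 (241 with Isl1, 520.04 without). Sp8 (55.7 and 151 CPM) and Six3 (99.0 and 206) leaned the same way with intervals that overlap. All 5 rule markers were also higher without Isl1, such as Gad1 (105 and 254 CPM), Slc32a1 (186 and 308) and Gad2 (904 and 1131). Every member needed 3 marker UMIs, which asks for a higher marker CPM in shallower cells. Outside the rule, Meis2 (1683 and 2207 CPM) was also higher without Isl1, with intervals that do not overlap. Dlx1 (588 and 822) and Dlx2 (551 and 726) leaned the same way with intervals that overlap. The part of the rule and of depth in these differences was not tested. Stmn2 (3039 and 2770 CPM) and Tubb3 (4710 and 4771) were close in the 2 subsets. In summed UMIs, Ebf1, Mapt and Ina stood higher with Isl1 and Pou3f4 stood higher without it. These genes come from the ends of the ranking, and the intervals leave out the spread between cells. Mapt was found in 22 cells with Isl1 and 6 without, Ina in 35 and 29 and Pou3f4 in 22 and 43. Whether the cells form 2 subsets was not tested.

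**Figure D4:**
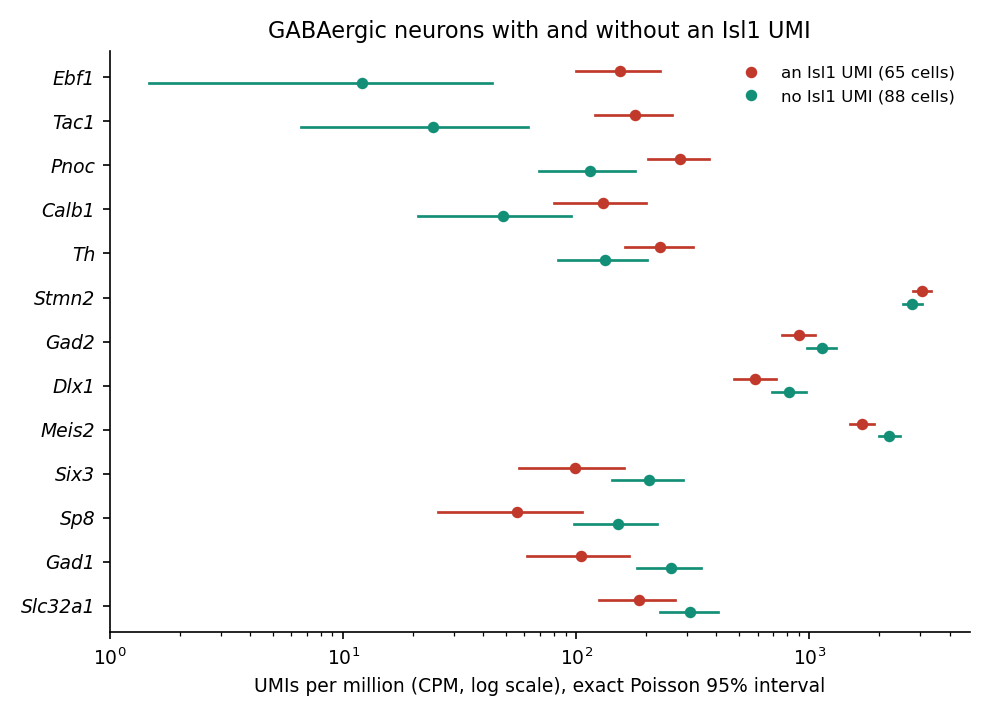
Levels in CPM (logarithmic axis) of named genes in the 65 members with an Isl1 UMI and the 88 members without one. Points are summed UMIs scaled to CPM and bars exact Poisson 95% counting intervals. Ebf1, Tac1 and Pnoc stand higher with Isl1, with intervals that do not overlap, while those of Stmn2 and Th overlap. Gad1, Gad2 and Slc32a1 are rule markers, and the part of the rule and of depth in their levels was not tested.

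Th did not follow the Isl1 split closely. Of the 37 members with Th, 19 also held Isl1, and Th stood at 229 CPM (161 to 316) in Isl1 cells and 133 (83.4 to 201) in the rest, intervals that overlap. Members with Th held Pnoc at 335 CPM and Pax6 at 602, against 143 and 333 in members without it. Their median depth was 2290 UMIs against 1840. Thinned to 1000 UMIs, the share of members with Th was 15.8% in place of 24.2%, and that of excitatory neurons 2.84% in place of 5.48%.

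The same 4 conditions were applied at the later ages. They found 286 cells at E13.5 (15.04% of kept cells, 13.46 to 16.7), 693 at E15.5 (13.9%, 12.9 to 14.9) and 425 at E17.5 (21.3%, 19.5 to 23.1), so the E11.5 share was the lowest of the 4 libraries. The share of cycling cells among marker-positive cells was 42.0% at E11.5, 24.5% at E13.5, 26.8% at E15.5 and 12.6% at E17.5. A limit of 2 cell-cycle UMIs is met more easily in deeper cells. Median UMIs, in order of age, were 3075, 2371, 2357 and 2299 in cycling cells and 1920, 1721.5, 1631 and 1512 in cells meeting the rule. The part of depth in these shares was not tested. The summed level of the 5 rule markers was close across ages, at 3079.9, 3264, 3103 and 3066 CPM in that order of age. At every age the rule asked for at least 3 UMIs of these same genes, which favours similar levels. Dlx1 stood at 707, 926, 921 and 957 CPM, and Dlx2 at 639, 423, 536 and 446.

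Positional genes differed in their course over the 4 libraries. The summed medial eminence list stood at 299.7 CPM at E11.5, with UMIs in 47 cells (30.7%). It stood at 2370, 2372 and 2466 CPM in the later libraries in order of age. The lateral eminence and striatal list stood at 3698, 5072, 3426 and 2487 CPM, and the caudal list at 174, 213, 289 and 637. Isl1 stood at 385, 375, 275 and 169 CPM, Meis2 at 1948, 2096, 1255 and 742, and Ebf1 at 82.6, 565, 364 and 144. Npy stood at 3.06 CPM at E11.5 and at 399.7, 438 and 472 later, and Maf at 6.12 and then 387, 398 and 408. Isl1 and Meis2 thus stood highest in the 2 earlier libraries, and the medial eminence list, Npy and Maf stood higher in each of the 3 later ones than at E11.5.

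Against the 693 cells of the same rule at E15.5, 404 of 8591 genes (4.7%) were higher at E11.5 and 736 (8.57%) were lower. Median-of-ratios scaling moved every ratio by -0.14 on the log2 scale and gave 275 higher and 957 lower. Th had 59 UMIs at E11.5 and 0 at E15.5 (lower 95% limit of the ratio 62.0), and stood at 1.78 CPM at E13.5 and 1.36 at E17.5. Crabp2, a carrier of retinoic acid, stood at 918 CPM in 111 cells at E11.5 and 48.0, 17.6 and 5.44 CPM later. It was also abundant in E11.5 excitatory neurons, at 1159 CPM. Slc10a4 stood at 162 CPM at E11.5 and 3.06 at E15.5, Pnoc at 196 and 8.41, Pax6 at 407 and 40.5 and the cyclin gene Ccnd1 at 134.6 and 10.7. Lower at E11.5 were the adhesion gene Chl1 (0 against 396 CPM), Gucy1a3, a subunit of guanylate cyclase (0 against 342), Nxph1 (0 against 183), the glutamate receptor gene Gria1 (12.2 against 410) and Tcf4 (132 against 1174). All 9 medial eminence genes called were lower at E11.5, of 10 tested (median log2 ratio -2.81, all genes -0.09). Among 23 synaptic and axonal genes 3 were higher and 13 lower at E11.5. The 3 were Gap43, Nefl and Nefm (1000.1 against 426, 144 against 35.9 and 575 against 189 CPM), and the 13 included Snap25 (58.1 against 194), Syt1 (82.6 against 271), Mapt (196 against 838) and Grin2b (3.06 against 68.0).

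**Figure D5:**
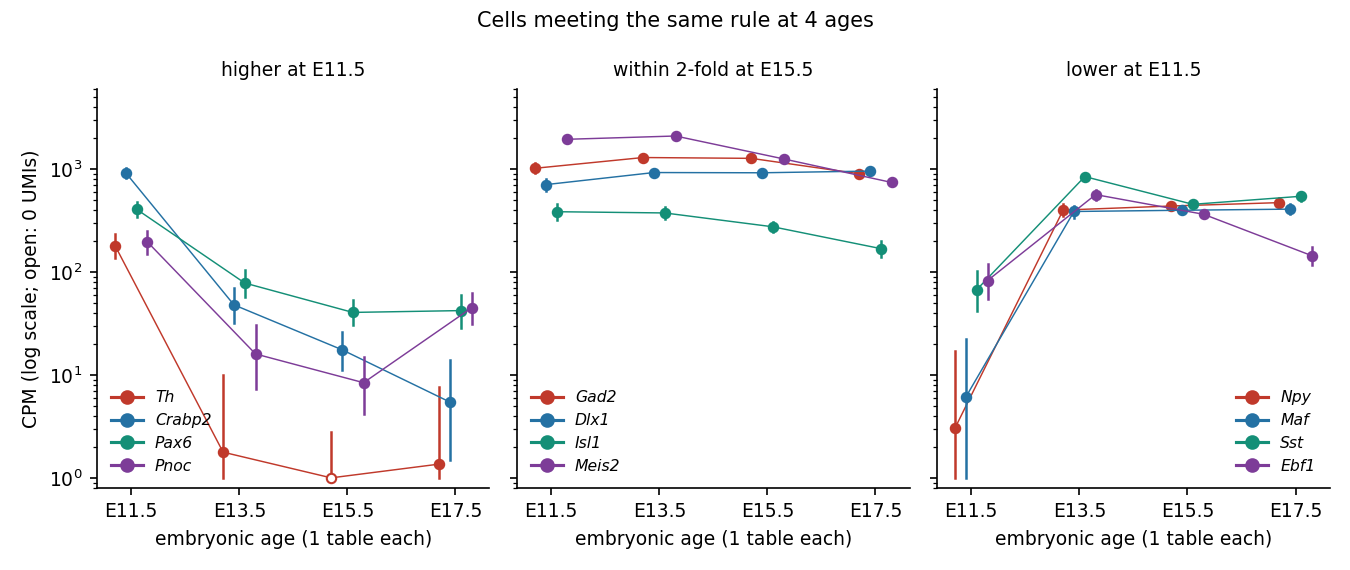
Levels in CPM (logarithmic axis) of named genes in cells that met the same rule at each of the 4 ages. Points are summed UMIs scaled to CPM from 1 library per age and bars exact Poisson 95% counting intervals, cut at 1 CPM, with an open point for 0 UMIs. Th, Crabp2 and Pnoc are highest at E11.5, and Npy and Maf are near the floor there and high at the later ages.

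The cells compared at the later ages also differed in RNA of other cell types. The 5 excitatory rule genes stood at 39.8 CPM at E11.5, with UMIs in 12 of 153 members. They stood at 137 CPM at E13.5, 488 at E15.5 (UMIs in 35.8% of cells) and 246 at E17.5. Erythroid markers stood at 480 CPM at E11.5, 490.4 at E13.5, 3073 at E15.5 and 6035 at E17.5, and microglia markers at 0, 1.78, 42.8 and 13.6. Neurod6 (0 against 286 CPM at E15.5) and Nfib (12.2 against 395) are listed markers of excitatory neurons. The part of RNA from other cells in the age differences, and that of viability sorting, was not tested.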

How the data were processed

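Drop-seq tables of raw UMI counts per gene and cell were used as the authors deposited them, 1 of all cells and 1 of cortical cells per age. Per the submitters' processing notes the build was mm10. The sources used here do not name the aligner, the annotation, the counter or the use of strand. Counts were summed over the cells of a group and scaled to a total of 1000000 (CPM). With 1 library per age no test was possible and no p-value is given. Poisson, Clopper-Pearson and conditional binomial 95% intervals cover counting error only. Genes entered a comparison with at least 50 UMIs over all kept cells, or 20 over 2 groups. A 0 was floored at 3 UMIs in calls, median ratios and the log2 ratios of the last section. The ratios given for Sp9, Isl1 and Pou3f4 against groups at 0 UMIs used the same floor. No doublet caller was run and doublets were kept. Results for some genes, and the split of cells by region genes, are not reported here. The largest number of excitatory-rule UMIs in a member was 2.

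Named genes were the rule genes, list members past the fold with up to 4 more by UMIs, the 20 highest and 10 lowest against all other cells, and 10 each way elsewhere, by the bound of the interval. Predicted, hemoglobin and mitochondrial genes were skipped. Members and the 23 gene lists were chosen with earlier results of these data known, and the comparison with cycling cells and the splits by Isl1 and Th after their values were seen. Other genes named from the lists serve as examples and were also picked with values known. Positions are from GENCODE M21 (308 of 310 genes matched). Fold calls were tested on simulated data. Python 3.11.15, numpy 2.4.6, scipy 1.17.1, pandas 2.3.3 and matplotlib 3.10.9 were used.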

Additional observations from a re-analysis of the deposited data

How the results depend on the processing

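No paired analysis was possible because each age is 1 library and the E15.5 batches are not told apart in their table, and no replicate could be left out for the same reason. The number of members was 102 with at least 5 marker UMIs and 104 with no cell-cycle UMI, or 5.12% and 5.22% of kept cells. In the same order the shares were 9.41% and 13.4% at E13.5 and 8.21% and 12.3% at E15.5, and with 5 marker UMIs 10.005% at E17.5. With at least 2 marker UMIs they were 18.03% at E13.5, 16.8% at E15.5 and 29.2% at E17.5, and with cells thinned to 1000 UMIs 10.8%, 9.19% and 14.9%. A gene filter 4 times as high gave 279 genes higher than in all other cells, 39 higher and 60 lower than in excitatory neurons, 74 higher and 20 lower than in the other non-cortical neurons, and 137 higher and 350 lower than at E15.5, with fewer genes entering. With no filter 455 genes were lower than in the other non-cortical neurons. Of 154 named genes called against all other cells, 14 lost the call with means of per-cell CPM, 8 with median-of-ratios scaling and 17 with no cell-cycle UMI. Signs turned for Sema3a (log2 -0.34 without the tenth of members with most UMIs), Sstr2 (-0.30 with 5 marker UMIs) and Tac1 against the other non-cortical neurons (-0.37 with no cell-cycle UMI), and the cause was not tested. Depth limits the small genes most, since a gene at 0 UMIs in members could be at up to 11.3 CPM.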
